A study of Mus musculus with 5 samples.

Results

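The genes described here encode histone demethylases (Kdm), histone deacetylases (Hdac), chromodomain helicases (Chd) and SWI/SNF-related remodelling proteins (Smarc). They were taken from the authors' deposited promoter tables by symbol: Kdm, Hdac or Chd followed by a digit, or a name starting with Smarc. This gave 42 of the 12697 symbols in those tables, namely 13 Kdm, 7 Hdac, 9 Chd and 13 Smarc symbols, with 44 of the 13039 promoter regions. One of the Smarc symbols, Smarca5-ps, is a pseudogene. Binding of KAP1, a corepressor encoded by Trim28, and of Ring1b, the product of Rnf2 and an E3 ligase of Polycomb repressive complex 1, was mapped by ChIP-seq in mouse embryonic stem (ES) cells.

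The series held 5 libraries, 1 per group. KAP1 was precipitated from KAP1 fl/fl cells given vehicle (ethanol) and from KAP1 fl/fl cells given 4-OH-Tamoxifen. Ring1b was precipitated from Ring1b fl/fl cells given vehicle, from Ring1b fl/fl cells given 4-OH-Tamoxifen, and from KAP1 fl/fl cells given 4-OH-Tamoxifen. All cells grew on irradiated MEFs, carried floxed alleles of 1 of the genes, and were treated for 24 h and cultured for a further 48 h, in which tamoxifen was kept on only for the Ring1b fl/fl line. The sources used here do not name the driver of the recombinase. KAP1 and Ring1b were thus mapped in vehicle cells of different lines, and a promoter with both proteins is a comparison across lines. Each vehicle library was called against the tamoxifen library of its own line and antibody, and the authors' tables then placed promoters and whole genes in a shared, a KAP1 only or a Ring1b only class. Peak scores are the authors' own, 10 times the −log10 p of the peak caller, and are ranked here only within their own list. With 1 library per group there is no replicate error and no test, so counts and medians are given beside those of all symbols. Intervals are 95% exact Clopper-Pearson intervals and cover counting error only. Read depth is not given in these sources, and no RNA was measured, so neither the ES cell label nor the expression of any gene named below was checked.

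Histone demethylases remove methyl groups from lysines of histone tails, and deacetylases remove acetyl groups. The chromodomain helicases and the SWI/SNF and ISWI ATPases use ATP to slide, evict or exchange nucleosomes. Polycomb repressive complex 1 ubiquitinates histone H2A and is known to occupy CpG-rich promoters of developmental regulators in ES cells. KAP1 is known for recruiting deacetylase-containing and histone-methylating complexes to retroelements through zinc finger proteins, so several genes below encode enzymes of the machinery that both proteins work with.

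KAP1 was found at nearly all of these listed promoters and Ring1b at fewer than 1 in 2. A symbol enters the promoter tables only with a KAP1 or Ring1b peak at a promoter, so the shares below are among bound promoters. Over the 52 protein-coding genes of these families, listed or not, KAP1 was at 75.0% and Ring1b at 38.5%. Over all protein-coding genes, counted by a stricter rule, the shares were 58.3% and 28.6%. KAP1 lay at a promoter of 39 of the 42 symbols, or 92.9% (80.5 to 98.5), beside 93.4% of all symbols in the tables. Ring1b lay at a promoter of 19, or 45.2% (29.8 to 61.3), beside 47.3% of all symbols. In the classes of the authors' tables, 16 symbols had a shared promoter, or 38.1% (23.6 to 54.4), beside 40.6% of all symbols. The KAP1 only class held 24, or 57.1% (41.0 to 72.3), beside 53.5%. The Ring1b only class held 4, or 9.52% (2.66 to 22.6), beside 6.88%. Of the 19 symbols with Ring1b, 16 also had KAP1 at a promoter, which is 84.2% beside 86.0% of all symbols with Ring1b. Each of these shares is close to its background, which lies inside every interval given. Kdm2b and Smarca2 had promoters in more than 1 class, 4.76% (0.582 to 16.2) beside 1.04% of all symbols.

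Counts differed between the families, each of which is small. Among the 13 Kdm symbols, 4 had a shared promoter (Kdm2a, Kdm2b, Kdm3a and Kdm8), 10 were in the KAP1 only class and 0 in the Ring1b only class. Ring1b was thus present at 30.8% of Kdm symbols (9.09 to 61.4). Among the 7 Hdac symbols, 4 were shared (Hdac2, Hdac3, Hdac7 and Hdac10) and 3 KAP1 only, so Ring1b was present at 57.1% (18.4 to 90.1). The 9 Chd symbols held 3 of the 4 Ring1b only promoters (Chd3, Chd5 and Chd7), 1 shared promoter (Chd9) and 5 KAP1 only promoters. Ring1b was present at 44.4% of Chd symbols (13.7 to 78.8). The Ring1b only class held 33.3% of them (7.49 to 70.1), beside 6.88% of all symbols. KAP1 was present at 66.7% (29.9 to 92.5), beside 93.4%. These 2 backgrounds lie outside the Chd intervals, but the family has 9 symbols and the difference was not tested. Among the 13 Smarc symbols, 7 were shared, 6 KAP1 only and 1 Ring1b only, with Ring1b at 53.8% (25.1 to 80.8). The intervals of the 4 families for Ring1b overlap widely, and the families were not tested against each other.

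**Figure D1:**
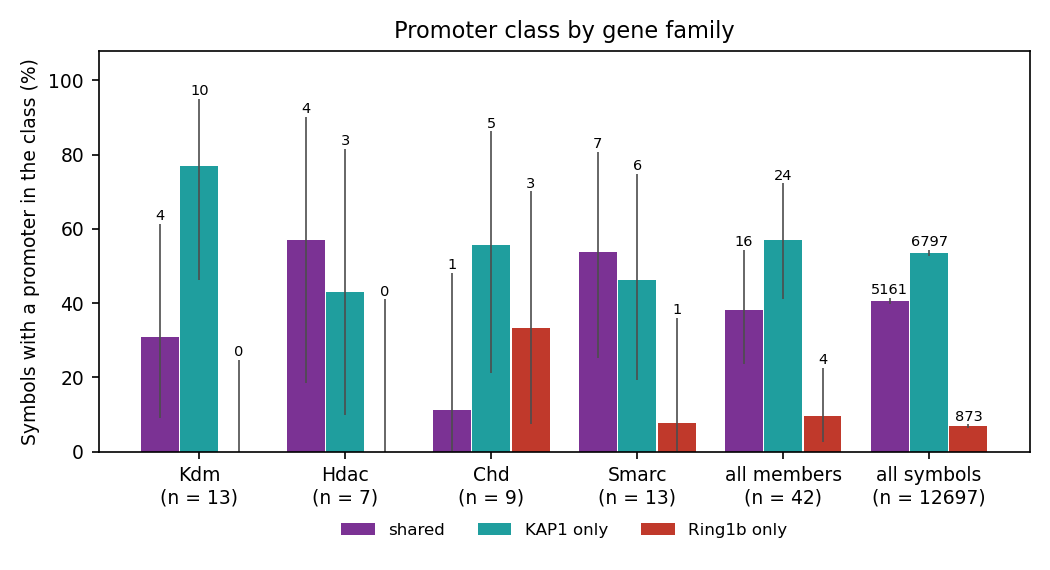
Percentage of symbols in each family with a promoter in the shared, KAP1 only and Ring1b only classes, with all 42 members and all 12697 symbols at the right. Bars start at 0, the thin lines are 95% exact Clopper-Pearson intervals, and the number above each bar is its count of symbols. Ring1b only promoters were listed for 3 Chd symbols, 1 Smarc symbol and no Kdm or Hdac symbol.

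Where Ring1b was present, its peaks had a median score and width somewhat below those of all genes with Ring1b, and 4 genes stood above the rest. The highest Ring1b score at a promoter had a median of 191 over the 19 symbols, beside 239.9 over all 6010 symbols with Ring1b. The widest Ring1b peak had a median width of 891 bp, beside 942 bp. A peak of 2 kb or wider was found at 3 symbols, Smarca2, Chd3 and Smarcd3, which is 15.8% beside 22.4% of all symbols with Ring1b. One of them, Smarca2, passed 5 kb, which is 5.26% beside 3.94%. A score above 1000 was reached at 4 symbols (21.1%, beside 25.5%), the same 3 and Chd7. A score under 100 was found at 7 (36.8%, beside 29.0%), namely Kdm2b, Kdm8, Hdac3, Hdac10, Chd5, Chd9 and Smarcc1. The family medians of the score were 109 for Kdm, 207 for Hdac, 771 for Chd and 300.2 for Smarc. The Chd median averages over a family that was split, with scores of 2404 and 1481 at Chd3 and Chd7 and of 61.2 and 53.3 at Chd5 and Chd9.

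**Figure D2:**
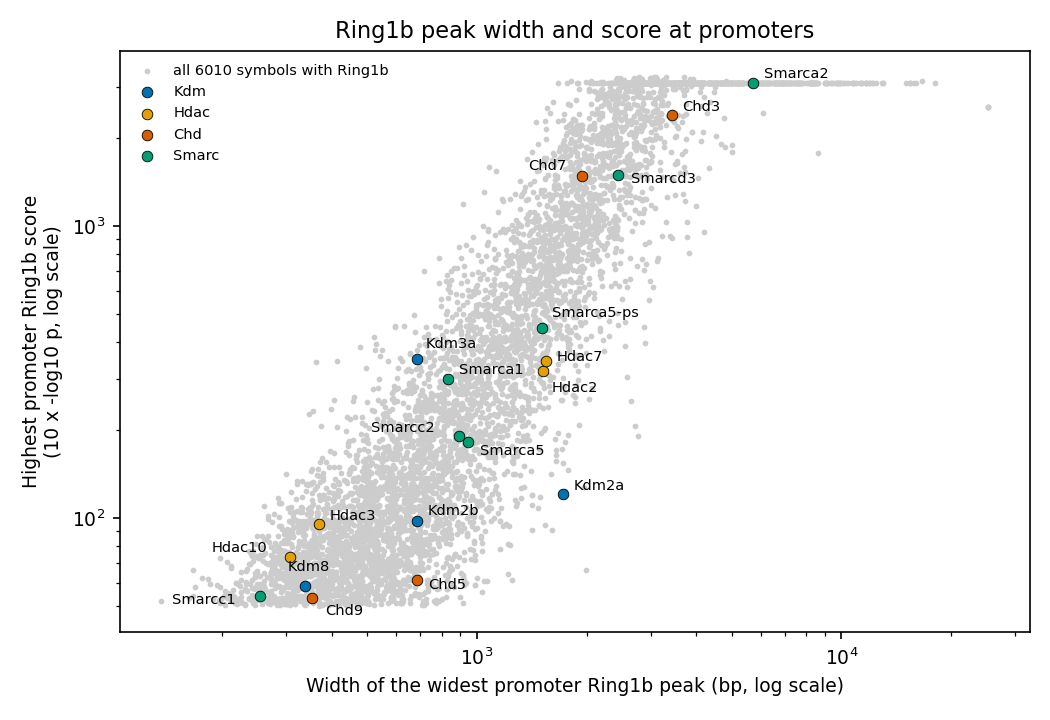
Width of the widest Ring1b peak at a promoter (bp, log scale) against the highest Ring1b score at a promoter (10 times −log10 p, log scale), for all 6010 symbols with Ring1b in grey and the 19 members in colours by family. The 4 symbols with scores above 1000 (Smarca2, Chd3, Smarcd3 and Chd7) stand apart from the other members, which score at most 448. The flat band at the top is the commonest score, 3100, which 732 Ring1b peaks share.

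The alternative ATPase genes of the SWI/SNF complex, Smarca2 and Smarca4, fell in different classes. The complex is built around either Smarca4 (BRG1) or Smarca2 (BRM) as its ATPase, and ES cells are known for a form with BRG1, Smarcc1 (BAF155) and Smarcd1 (BAF60A). Smarca2 carried the widest and highest Ring1b peak of all 42 symbols. It ran over 5737 bp (chromosome 19, 26603593 to 26609329) with a score of 3100, above 89.3% of symbols with Ring1b by score and 96.8% by width. Its KAP1 peak was low, with a score of 60.1 and a width of 345 bp, and KAP1 peaks covered 14.8% of the Ring1b peak. A second Smarca2 promoter, 143243 bp downstream, was Ring1b only, with a peak of 578 bp and a score of 216 and with the nearest KAP1 peak 96819 bp away. Smarca4 had no Ring1b peak at its promoter and a KAP1 score of 369, and the nearest Ring1b peak lay 105249 bp from the start. The 250 bases before the RefSeq start of both ATPase genes are shown because the genes are alternatives and fell in different classes. They are from GRCm38.p6, Smarca2 at chr19:26604910-26605159 and Smarca4 at chr9:21615919-21616168, both on the plus strand and both read 5′ to 3′. Capitals mark CG pairs, of which Smarca2 has 28 and Smarca4 has 25.
Smarca2: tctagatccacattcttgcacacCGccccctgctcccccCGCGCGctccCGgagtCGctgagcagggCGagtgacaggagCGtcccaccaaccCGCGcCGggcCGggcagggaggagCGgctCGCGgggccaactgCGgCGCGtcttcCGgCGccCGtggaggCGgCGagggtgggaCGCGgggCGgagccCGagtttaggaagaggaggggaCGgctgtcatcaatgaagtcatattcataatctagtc
Smarca4: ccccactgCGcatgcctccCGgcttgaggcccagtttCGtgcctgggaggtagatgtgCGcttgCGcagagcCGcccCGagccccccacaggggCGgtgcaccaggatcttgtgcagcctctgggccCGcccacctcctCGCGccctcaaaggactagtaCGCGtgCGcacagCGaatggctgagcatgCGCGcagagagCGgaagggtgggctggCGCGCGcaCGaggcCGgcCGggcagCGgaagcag
Both counts are above the median of 16 CG pairs in the same 250 bases over the symbols of the promoter tables with a sequence. Over all RefSeq promoters that median was 6. Whether the CG count goes with the class was not tested. The Smarca2 sequence lies inside the Ring1b peak, and the Smarca4 sequence lies inside a KAP1 peak of 1180 bp (21615545 to 21616724).

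Of the Smarcd genes, which encode the interchangeable BAF60 subunits, 1 was shared and 2 were KAP1 only. Smarcd3 (BAF60C), known from heart and neural forms of the complex, had a Ring1b peak of 2439 bp (chromosome 5, 24600928 to 24603366) with a score of 1499. That score is above 80.1% of symbols with Ring1b. Across it lay 3 KAP1 peaks with scores of 71.3, 81.0 and 134, which together covered 86.7% of the Ring1b peak. The listed Smarcd3 promoter (24601003 to 24603002) lies inside the RefSeq gene, whose 5′ end is at 24624456. The listed promoters of Hdac7, Kdm4c, Kdm6b and Smarcal1, among others, also did not hold the 5′ end of the RefSeq gene. Smarcd1 and Smarcd2 were KAP1 only, with KAP1 scores of 209 and 503, and the Smarcd2 score is above 98.1% of all symbols with KAP1. The nearest Ring1b peak to the Smarcd2 start lay 3379 bp away with a score of 434, outside the promoter window of 1 kb. The Smarcd3 sequence before the start (chr5:24602003-24602252, minus strand, read 5′ to 3′, CG pairs in capitals) is shown as the second of the strong Smarc promoters. It holds 38 CG pairs, the most of the sequences shown.
Smarcd3: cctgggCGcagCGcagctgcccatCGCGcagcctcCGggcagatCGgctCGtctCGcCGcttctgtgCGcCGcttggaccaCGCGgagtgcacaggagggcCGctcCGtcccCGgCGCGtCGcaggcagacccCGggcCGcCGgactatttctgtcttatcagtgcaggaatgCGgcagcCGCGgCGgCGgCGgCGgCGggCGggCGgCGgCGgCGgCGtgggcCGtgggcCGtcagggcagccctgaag
The sequence includes a run of CGG repeats and lies inside the Ring1b peak.

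The scaffold genes Smarcc1 and Smarcc2, which encode BAF155 and BAF170, were both shared. Smarcc2 had a Ring1b score of 191 over 891 bp, and its KAP1 score was 339. At Smarcc1 the Ring1b peak was the narrowest of all members, 254 bp with a score of 54.3. It was also the only one of the 16 shared promoters (6.25%, beside 2.37% of shared promoters in all) where the Ring1b peak touched no KAP1 peak. Of the ISWI ATPases, Smarca5 (SNF2H) had a Ring1b score of 182 and a KAP1 score of 99.5, and Smarca1 (SNF2L) had 300.2 and 79.4. The pseudogene Smarca5-ps, which is a separate locus on chromosome 4, had a Ring1b peak of 1507 bp with a score of 448 and a KAP1 score of 128. Reads of the pseudogene and of Smarca5 may map to either copy, and the sources used here do not say how such reads were treated. The other KAP1 only Smarc genes were Smarce1 (BAF57), with a KAP1 score of 332, Smarcad1 with 121 and Smarcal1, an annealing helicase gene, with 56.7. KAP1 scores were thus the higher where Ring1b was lacking in this family, with a median of 270.3 over KAP1 only and 128 over shared promoters. Over all symbols the order was the other way, 141 for KAP1 only and 154 for shared promoters.

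The chromodomain helicase genes held 3 of the 4 Ring1b only promoters, 2 of them with scores above 1000. That class held 33.3% of the 9 Chd symbols, beside 6.88% of all symbols. Chd3, Chd4 and Chd5 encode the alternative Mi-2 ATPases of the NuRD deacetylase complex. Chd4 was KAP1 only, with KAP1 scores of 136 and 85.8 at its promoter and the nearest Ring1b peak 13980 bp away. Chd3 was Ring1b only, with a peak of 3425 bp (chromosome 11, 69366211 to 69369635) and a score of 2404, above 86.4% of symbols with Ring1b by score and 91.8% by width. That peak ran 3216 bp into the gene, past the end of the promoter window. There it met a KAP1 peak with a score of 64.1, whose edge lay 2475 bp from the start, so that KAP1 covered 10.8% of it. Chd5, known as a neural Mi-2 gene, was Ring1b only with short peaks of 450 and 687 bp and scores of 61.2 and 55.9. A KAP1 peak with a score of 144 lay 1994 bp from its start. The 3 Mi-2 genes thus differed in class, Chd4 with KAP1 alone and Chd3 and Chd5 with Ring1b alone, but the Ring1b scores of Chd3 and Chd5 lay near opposite ends of the range. The Chd5 sequence before the start is printed as the example of a weak Ring1b only promoter (GRCm38.p6, chr4:152338401-152338650, plus strand, 5′ to 3′). Its 21 CG pairs are in capitals.
Chd5: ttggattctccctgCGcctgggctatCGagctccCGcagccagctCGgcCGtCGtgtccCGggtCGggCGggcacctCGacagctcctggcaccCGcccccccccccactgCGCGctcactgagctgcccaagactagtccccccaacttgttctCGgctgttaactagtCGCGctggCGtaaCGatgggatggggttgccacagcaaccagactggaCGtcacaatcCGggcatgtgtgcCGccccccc
The first of the Chd5 peaks (152338299 to 152338748) contains this stretch.

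Chd7, the gene mutated in CHARGE syndrome, had adjacent Ring1b peaks of 1260 and 1948 bp (chromosome 4, 8689135 to 8690394 and 8690543 to 8692490). Their scores were 1105 and 1481, and the second is above 79.9% of symbols with Ring1b by score. The nearest KAP1 peak, with a score of 241, lay 2185 bp from the start. The other Chd genes were on the KAP1 side. Chd1, which encodes a remodeller that binds methylated histone H3 lysine 4, had a KAP1 score of 358, and Chd1l, a remodeller gene linked to poly(ADP-ribose), had 309.8. Chd6 had 107, and Chd2 had 53.0, the lowest of the 39 members with KAP1. Chd9 was shared, with a KAP1 peak of 1838 bp and a score of 345 around a Ring1b peak of 354 bp and 53.3. A higher Ring1b peak of Chd9, with a score of 756 in the authors' deposited gene table, lay 58115 bp from the promoter inside the gene. Of the 4 Ring1b only promoters, 3 (75.0%), those of Chd3, Chd5 and Chd7, had a KAP1 peak within 5 kb of the start, beside 29.5% of the 884 Ring1b only promoters in all.

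**Figure D3:**
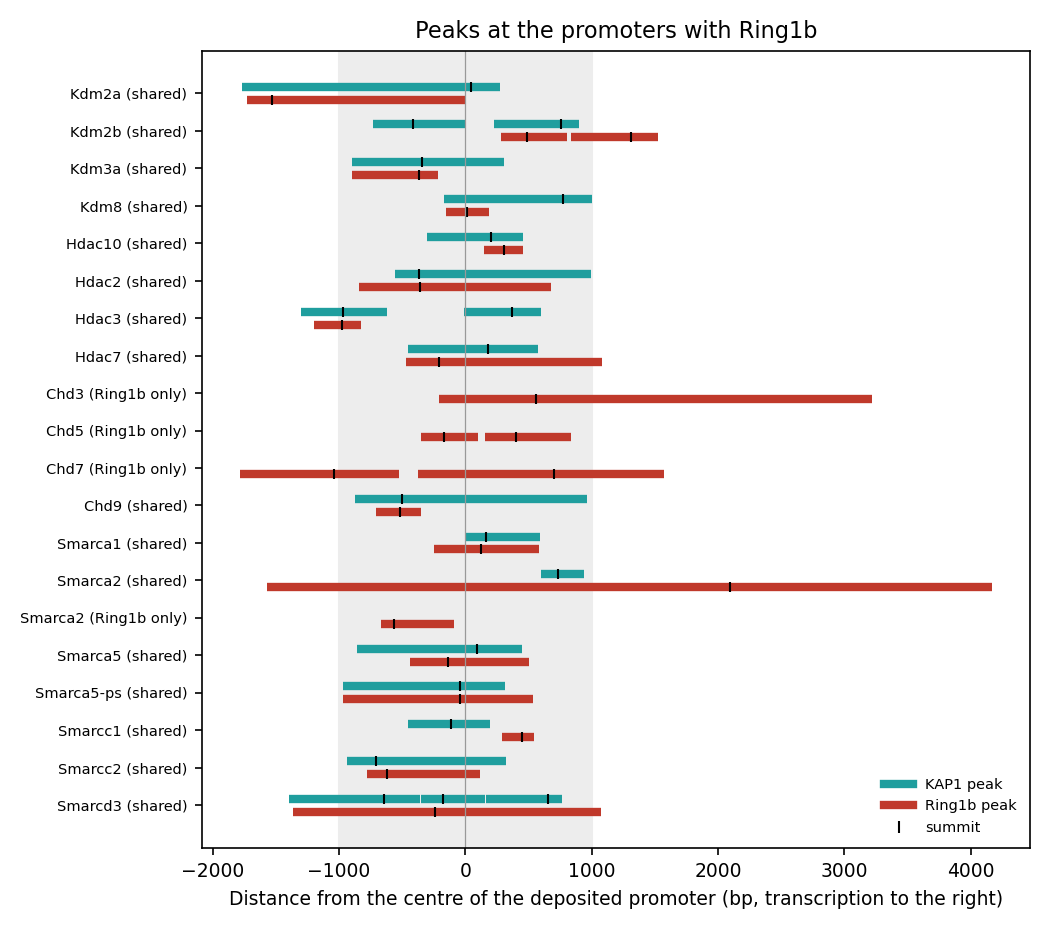
KAP1 peaks (teal) and Ring1b peaks (red) at the 20 member promoters with Ring1b, drawn to scale as distance from the centre of the deposited promoter in bp, with transcription to the right. Black ticks are summits and the grey band is 1 kb on each side of the centre. The Ring1b peaks of Smarca2 and Chd3 run out of the band on the right, to 4170 and 3216 bp, and most others lie within it or close to it.

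The deacetylase genes with Ring1b had peaks of middle to low score. Hdac2, which encodes a class I enzyme of the NuRD, Sin3 and CoREST complexes, had the highest KAP1 score of the family and a Ring1b score close to that of Hdac7. Its Ring1b peak was 1523 bp wide with a score of 319 (chromosome 10, 36973699 to 36975221), and its KAP1 score of 462 is above 97.4% of symbols with KAP1. The summits of the 2 peaks were 10 bp apart. Its close relative Hdac1 was KAP1 only, with scores of 115 and 106 and the nearest Ring1b peak 13754 bp away. Hdac7, a class IIa enzyme, had a Ring1b score of 344 over 1547 bp and a KAP1 score of 84.2. Hdac10, a class IIb enzyme, had a Ring1b score of 73.8 over 308 bp and a KAP1 score of 148. Hdac5 and Hdac11 were KAP1 only, with scores of 89.3 and 199.9. The Hdac2 sequence before the start is shown because both summits lie a short way upstream of it (GRCm38.p6, chr10:36974294-36974543, plus strand, 5′ to 3′). Its 27 CG pairs are in capitals.
Hdac2: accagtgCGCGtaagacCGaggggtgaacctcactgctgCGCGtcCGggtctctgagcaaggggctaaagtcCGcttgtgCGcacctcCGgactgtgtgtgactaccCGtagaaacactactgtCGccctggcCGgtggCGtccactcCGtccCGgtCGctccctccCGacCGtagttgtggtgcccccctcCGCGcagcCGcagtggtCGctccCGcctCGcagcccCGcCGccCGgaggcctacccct
The summits lay 370 bp (KAP1) and 360 bp (Ring1b) upstream of the centre of the deposited promoter, and both peaks cover the whole of the sequence.

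Hdac3, the catalytic subunit of the NCoR and SMRT complexes, was listed as shared with a Ring1b score of 95.4 and KAP1 scores of 243 and 109. Its deposited region also holds the start of Rell2. The KAP1 peak over the Hdac3 start was the one with a score of 109, and the other lay upstream with the Ring1b peak inside it. The Ring1b peak began 1113 bp from the Hdac3 start and 543 bp from that of Rell2. With the region limited to 1 kb around the Hdac3 start, a setting chosen after the data were seen, the shared members fell from 16 to 15. Kdm2b and Kdm5a also lay in regions that hold another gene, A930024E05Rik and Ccdc77, as did 1496 of the 13039 regions in all.

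Of the demethylase genes with Ring1b, none had a peak of 2 kb or a score above 351. Kdm2b encodes the CpG-binding protein known to bring a variant Polycomb complex 1 to CpG islands, and Kdm2a encodes its close relative. At the upstream promoter of Kdm2b, Ring1b peaks of 685 and 519 bp had scores of 97.7 and 57.5, and KAP1 peaks had scores of 122 and 71.8. A Kdm2b promoter 88593 bp away was KAP1 only, with a score of 98.1. At Kdm2a the Ring1b peak was the widest of the family, 1722 bp with a score of 121. It lay upstream of the centre of the deposited promoter and covered the 5′ end of the RefSeq gene (chromosome 19, 4398721). The peak was inside the widest KAP1 peak of any member, 2040 bp with a score of 302. Kdm3a, an H3K9 demethylase gene, had the highest Ring1b score of the family, 351 over 686 bp, with a KAP1 score of 299 and summits 25 bp apart. Kdm8 had a Ring1b score of 58.7 and a KAP1 score of 349.

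The KAP1 only demethylase genes took in every listed member of the Kdm4, Kdm5 and Kdm6 groups. Kdm6a (UTX) and Kdm6b (JMJD3), which remove the H3K27 methylation laid down by Polycomb complex 2, had KAP1 scores of 75.4 and 137. Kdm1a (LSD1), an H3K4 demethylase of the CoREST complex, had 165, and Kdm3b had 126. Kdm4a, Kdm4b and Kdm4c, which act on H3K9 and H3K36, had 85.5, 65.5 and 95.2. Of the H3K4 demethylase genes, Kdm5a had 113 and Kdm5b had 545, the highest KAP1 score of all members and above 98.7% of symbols with KAP1. A Ring1b peak lay 3586 bp from the Kdm6b start with a score of 53.0, and one with a score of 285 lay 3499 bp from the Kdm5b start. With Smarcd2 these are the 3 of 24 KAP1 only promoters (12.5%) with Ring1b within 5 kb, beside 6.46% of the 6918 KAP1 only promoters in all.

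Over the 39 members with KAP1, the median of the highest score was 136, beside 146 over all symbols with KAP1. Scores ran from 53.0 at Chd2 to 545 at Kdm5b. The widest KAP1 peak had a median width of 1003 bp, beside 796 bp over all symbols. The member median was 942 bp for the highest-scoring peak, and 768 bp with the borders of the authors' promoter tables. Values over all symbols under these settings are not given here, so the difference in width may depend on the source of the borders. Members with a KAP1 only promoter had a median score of 124 and those with a shared promoter 153, with Kdm2b in both, beside 141 and 154 over all symbols. The difference ran in this direction in the Kdm, Hdac and Chd families and the other way in Smarc, with Chd represented by 1 shared promoter.

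**Figure D4:**
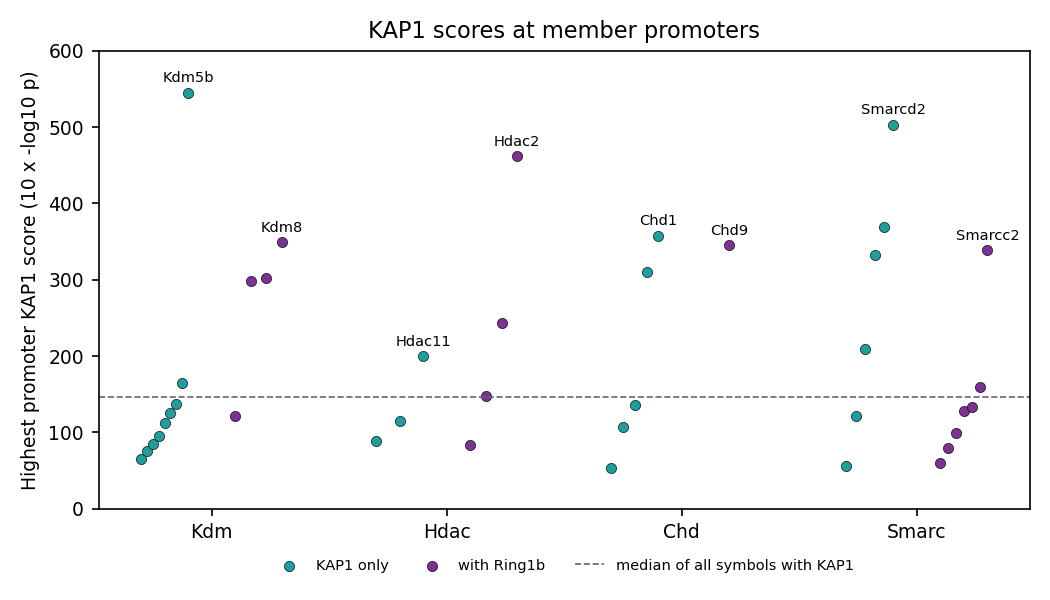
Highest KAP1 score at a promoter (10 times −log10 p) of each of the 39 members with KAP1, by family, with KAP1 only symbols in teal and symbols with Ring1b in purple, ordered by score within each group. The dashed line is the median over all symbols with KAP1, 146. Kdm5b (545), Smarcd2 (503) and Hdac2 (462) are the 3 highest.

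At the 16 shared promoters the KAP1 and Ring1b summits were a median of 311 bp apart, beside 232 bp over the 5236 shared promoters in all. They lay within 100 bp of each other at 6, or 37.5%, beside 35.2%. These were Smarca5-ps (3 bp), Hdac3 (8 bp), Hdac2 (10 bp), Kdm3a (25 bp), Smarca1 (33 bp) and Smarcc2 (91 bp). They were over 500 bp apart at 5, or 31.2%, beside 30.6%: Kdm2b (1723 bp), Kdm2a (1573 bp), Smarca2 (1362 bp), Kdm8 (757 bp) and Smarcc1 (564 bp). These distances take the pair of peaks given in the authors' deposited table, and where the closest pair was taken instead, the median was 97.5 bp. At least 1 Ring1b peak lay wholly inside KAP1 peaks at 6 of the 16 promoters (37.5%), beside 34.7% of all. At Kdm2b, one of the 6, this was the lower-scoring peak, and 21.8% of the higher one was covered. The Ring1b summit was downstream of the centre at 5 of the 13 shared promoters with a single start (38.5%), beside 67.2% of 4227 in all.

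The class over the whole gene was mostly that of the promoter. Of the 33 members with 1 promoter class and a place in the whole-gene tables, 4 changed class, or 12.1%, beside 10.8% of all symbols. Chd5 and Chd7 went from Ring1b only to shared, as did 47.4% of all Ring1b only symbols. Their KAP1 scores in the authors' deposited gene table were 251 and 195, at 13518 and 82708 bp from the promoter. Kdm2a and Kdm3a went from shared to KAP1 only, as did 1.91% of all. At both, the Ring1b peak began outside the deposited gene span, 5 bp beyond its end at Kdm2a and 104 bp beyond it at Kdm3a. Of 9021 gene spans compared with their promoter, 4020 ended at the start with no upstream part and 4779 began 1 kb before it. Another 7 members (Kdm5a, Kdm6b, Hdac1, Hdac7, Hdac10, Chd3 and Smarcd3) were in no whole-gene table under their symbol, as were 15.8% of all symbols. None of the members in the whole-gene tables was Ring1b only there, beside 3.73% of all symbols. The authors' table also listed higher KAP1 scores inside some genes than at their promoters, among them 938 in Kdm1a (4342 bp from the promoter), 566 in Smarcad1 (18293 bp) and 408 in Kdm3b (38575 bp).

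Some genes of these families had no promoter in the tables under a matching symbol. The RefSeq table of GRCm38.p6 held 52 protein-coding genes that meet the same naming rule. By transcript accession or symbol, 43 of them (82.7%) had a listed promoter. The background, counted by accession alone, was 62.2% of the 21031 protein-coding genes in all. The rule for the background is thus the stricter one. Chd7 was counted by its symbol, because the accession of its region matched no gene of the RefSeq table. Counted in the same 2 ways, KAP1 was listed at 75.0% of the 52, beside 58.3%, and Ring1b at 38.5%, beside 28.6%. The accession match added Kdm1b, listed under the symbol Tpmt as shared (Ring1b score 79.2, KAP1 score 167), and Kdm7a, listed under the older symbol Jhdm1d as Ring1b only (Ring1b score 138 over 580 bp). Kdm4d, Kdm5c, Kdm5d, Smarcb1, Hdac6, Hdac8 and Hdac9 had no peak of either list within 1 kb of a RefSeq start. Chd8 and Hdac4 had a KAP1 peak there, with scores of 156 and 280.5, and no Ring1b peak. The whole-gene tables listed Hdac6 and Hdac8 as KAP1 only, each with a KAP1 score of 64, at 10813 and 200094 bp from the start. They listed Hdac4 and Hdac9 as shared. For Hdac4 the authors' deposited gene table gave scores of 70 for Ring1b and 500 for KAP1, at 60861 and 65023 bp from the start. For Hdac9 it gave a Ring1b peak of 1630 bp (chromosome 12, 34905943 to 34907572) and a score of 907, 10389 bp from the nearest start, and a KAP1 score of 102.

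The third peak list holds Ring1b peaks in KAP1 fl/fl cells given 4-OH-Tamoxifen, called against Ring1b of Ring1b fl/fl cells given 4-OH-Tamoxifen. That control is another line, and no Ring1b library of vehicle KAP1 fl/fl cells was analysed here, so a peak in this list is not a measured change on loss of KAP1. One of the 42 members, Kdm5b, had such a peak at its promoter, beside 3.26% of all symbols and 5.46% of the symbols that were KAP1 only. The peak was 223 bp wide (chromosome 1, 134560038 to 134560260) with a score of 84.6, above 91.1% of the list. No Ring1b peak was listed at this promoter in vehicle Ring1b fl/fl cells. The peak lay inside the KAP1 peak of vehicle cells (134559990 to 134561848), with its summit 42 bp upstream of the centre and the KAP1 summit 20 bp upstream. The Kdm5b sequence before the start is shown as the only member promoter in this list (GRCm38.p6, chr1:134559928-134560177, plus strand, 5′ to 3′). It holds 13 CG pairs, in capitals, the fewest of the sequences printed, and most of them are near its 3′ end.
Kdm5b: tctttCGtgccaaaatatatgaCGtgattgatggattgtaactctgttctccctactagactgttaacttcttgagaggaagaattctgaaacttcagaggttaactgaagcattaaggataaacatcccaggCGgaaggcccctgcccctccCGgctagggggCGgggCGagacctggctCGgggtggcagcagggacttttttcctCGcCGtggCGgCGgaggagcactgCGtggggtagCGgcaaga
The peak begins within this sequence and runs past the start.

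None of the 23 Ring1b peaks at member promoters in vehicle cells met a peak of this list, beside 0.326% of all Ring1b peaks. A count of 0, read as up to 3 peaks of the 23, allows a share of up to 13.0%. Inside the genes, 9 of the 42 members held 13 peaks of the list, and 17.2% of all symbols found in the RefSeq table held at least 1. These counts take no account of gene length, and a longer gene has more room for a peak. Of the 13 peaks, 5 met a vehicle KAP1 peak, beside 20.5% of the 2694 peaks of the list inside genes of the promoter tables. None of the 13 met a vehicle Ring1b peak, beside 0.594%. Chd9 held 4 of them, with scores from 53.8 to 62.0, and lies on chromosome 8, which carries 12.6% of this list and 3.95% of the vehicle Ring1b list. The part of that chromosome's excess in the Chd9 count was not tested.

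Genes for partner subunits and related enzymes were described from a list of 65, of which 49 were in the promoter tables. Ring1b lay at 15 of the 49, or 30.6%, beside the 47.3% of all symbols: 11 were shared, 4 Ring1b only and 34 KAP1 only. Of 10 NuRD partner genes 7 were in the promoter tables, and none of the 7, among them Mta2, Mbd3 and Rbbp4, had Ring1b at a promoter. Over the whole gene Mta3, one of the 7, was shared. Ring1b lay at 5 of 13 SWI/SNF partner genes (38.5%). The highest was Dpf3, a subunit gene known from heart and muscle, with a score of 3125 over 4832 bp, and the others were Bcl7b (149), Ss18 (126), Dpf1 (97.7) and Bcl7a (97.3). Among the ISWI partners, 3 of 6 had Ring1b, with a score of 2275 over 2737 bp at Baz1a, 375 at Cecr2 and 61.2 at Baz2b. Of the other JmjC genes 4 of 7 had it, namely Hr (395), Jhdm1d (138), Jarid2 (73.8), which encodes a Polycomb complex 2 subunit, and Phf2 (72.7). Ring1b lay at 1 of 6 HDAC corepressor genes (Rcor1, 80.9), 1 of 5 sirtuin genes (Sirt1, 125) and 1 of 5 other remodeller genes (Hells, 81.9).

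RefSeq promoter sequences of 300 bases, 250 before and 50 after the start, were matched for 27 of the 42 members. This is below 80%, so a comparison of CG pairs or motifs between the classes is void. The GC box, GGGCGG on either strand, was present in the 300-base window of each of the 6 promoters shown, and is present in 67.5% of the windows of all symbols in the promoter tables with a sequence and in 35.7% of the 32851 windows of the RefSeq table. Smarca2 also holds the ETS-type letters CCGGAAG, which occur in 15.2% and 8.86% of the same windows. The other motifs searched on both strands were the CCAAT box, the letters TATAAA of a TATA box, the letters CACGTG of an E-box, and the NRF1 and YY1 motifs, none of which is in the 6 windows. They occur in 37.4%, 13.6%, 7.15%, 0.971% and 0.633% of the RefSeq windows, and in 36.9%, 6.64%, 10.4%, 2.04% and 1.31% of those of the promoter tables. Matches of different motifs were counted separately, whether or not they overlapped. These matches describe the letters and not binding.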

How the data were processed

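The 5 ChIP-seq libraries were compared through 3 peak lists and 6 gene tables. The submitters' processing notes name Bowtie2, MACS 1.4.2, CASAVA 1.8.2 and bedtools 2.16.2, and the build mm10 (GRCm38). Each peak's score, as deposited by the authors and per the file headers, is 10 times the −log10 p from MACS for a library set against another. The same score was deposited in the gene tables. For KAP1 it was not always that of the highest list peak at the promoter (411 in the promoter table and 545 in the list at Kdm5b), and list scores are used unless a table is named.

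A peak was assigned to a promoter where it overlapped the deposited region by at least 1 bp, and coordinates are 1-based. The overlap search was tested on simulated peaks, with 500 of 500 windows identical to a brute-force search. RefSeq names, starts and promoter sequences (GRCm38.p6) were matched by symbol or accession. Scripts ran in Python 3.11.15 with pandas 2.3.3, numpy 2.4.6 and scipy 1.17.1. No library was left out. The members and gene lists were chosen with earlier results of these data known. Members given in full were the Ring1b only genes, genes in more than 1 class, the 3 highest and 3 widest Ring1b peaks and the 3 highest KAP1 only scores of each family, genes that met the knockout-cell list and genes that changed class over the whole gene. Values of other members and of partner genes were added after they were seen. Alternatives changed the window, overlap, score threshold, source of the class, peak chosen, chromosomes and unit, and the closing section gives their effect.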

Additional observations from a re-analysis of the deposited data

How the results depend on the processing

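Of 102 values recomputed for 17 results under alternative settings, 89 stayed within 1.5 times the main value and 13 did not. With peaks in the upper part of the scores of their list only, the shared members were 7 in place of 16. Members with Ring1b were then 2 each in Kdm, Hdac and Chd, in place of 4 each, the partner genes with Ring1b were 8 in place of 15, and the median Ring1b width was 1535 bp in place of 891 bp. This setting leaves out lower-scoring peaks by construction. The Ring1b only members were 1 with peaks counted within 5 kb of the start and 0 in the whole-gene tables, in place of 4. The whole-gene tables also gave 2 Kdm genes with Ring1b in place of 4, and 24 partner genes in place of 15. Members with a peak of the list from tamoxifen-treated KAP1 fl/fl cells were 3 within 5 kb of the promoter and 9 anywhere in the gene, in place of 1. The median summit distance was 97.5 bp for the closest pair of peaks, in place of 311 bp. Members defined by accession, joint regions limited to the own start, and results without the pseudogene were settings chosen after the data were seen. No paired analysis was possible because each group has 1 library. Replicate error and read depth are not known for any value here, so a promoter without a listed peak may hold binding below the threshold of the list.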
